A study of Rattus norvegicus with 14 samples.

Results

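Regions of sperm DNA assigned to solute carrier genes, the Slc and Slco families of membrane transporters, were described in rat males exposed to early-life separation, to a high-fat diet or to both. They are the regions in the 5 deposited comparison tables whose gene name starts with Slc or Slco and a digit, 116 of 8555 listed regions (1.36%). The 116 entries fall on 62 genes and, merged where they overlap by at least 1 bp, on 70 loci on 17 chromosomes, none on X or Y. The named gene is the one with the nearest promoter, so a region can lie far from it or inside another gene, and its position is given with each result. RefSeq counts 397 protein-coding rat genes under the same name rule. One member, Slc9a3r2, now named Nherf2 in RefSeq, is a scaffold that regulates sodium-proton exchangers and not a carrier itself.

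All libraries are of sperm from Wistar males of the parental generation (F0), assayed by reduced representation bisulfite sequencing (RRBS), which reads CpG methylation in CpG-rich restriction fragments. The ELS-HFD group (3 libraries) was kept apart from its mother 3 h a day on 16 days, starting at postnatal day 1, and received a high-fat diet from postnatal day 60. The ELS group (4 libraries) was separated in the same way and kept on standard chow, the HFD group (4 libraries) stayed with the dam and received the high-fat diet, and the control group (3 libraries) had neither. An elevated plus maze test came at postnatal day 57 in all groups. The labels give no litter, pooling or animal behind a library, nor an age at sperm collection. Each entry has a methylation level per library in percent (0 to 100) on the assembly Rnor_6.0. Differences are in percentage points, first-named group minus second-named group, and an SD is over libraries.

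Solute carriers move amino acids, sugars, nucleotide sugars, metal ions, organic anions and other small molecules across the plasma membrane and the membranes of mitochondria, lysosomes and the Golgi. Sperm use some of them for energy substrates and for bicarbonate and proton balance. In mature sperm, CpG-rich promoters are mostly free of methylation and most other CpGs are methylated, and sperm is transcriptionally almost silent, so the levels below describe DNA and not expression.

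The promoters that the results turn on are shown first. The capitals mark CpGs, the positions at which methylation is read. Each is the 250 bases before the RefSeq start, 5′ to 3′ along the gene, on the minus strand of GRCr8. The first 5 belong to genes whose start-site regions were close to unmethylated and whose libraries did not overlap between groups: Slc39a13 (chr3:97503045-97503294), Slc35a3 (chr2:207344218-207344467), Slc35c1 (chr3:98883959-98884208), Slc35e3 (chr7:55236023-55236272) and Slc39a6 (chr18:16160164-16160413). The last 2, Slc44a4 (chr20:3923855-3924104) and Slc13a3 (chr3:174623894-174624143), belong to genes with a methylated region within 1 kb of the start and are shown for contrast.
Slc39a13: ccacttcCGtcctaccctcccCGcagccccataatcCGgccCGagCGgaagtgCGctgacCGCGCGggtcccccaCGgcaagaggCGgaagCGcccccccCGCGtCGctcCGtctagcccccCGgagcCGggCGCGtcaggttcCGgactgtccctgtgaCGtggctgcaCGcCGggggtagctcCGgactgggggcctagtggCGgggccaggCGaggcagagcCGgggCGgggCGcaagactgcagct
Slc35a3: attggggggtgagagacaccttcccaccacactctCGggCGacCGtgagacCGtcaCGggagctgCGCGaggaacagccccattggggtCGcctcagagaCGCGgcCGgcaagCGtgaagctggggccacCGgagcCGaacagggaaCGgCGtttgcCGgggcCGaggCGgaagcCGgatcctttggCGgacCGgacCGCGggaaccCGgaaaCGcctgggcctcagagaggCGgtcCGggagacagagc
Slc35c1: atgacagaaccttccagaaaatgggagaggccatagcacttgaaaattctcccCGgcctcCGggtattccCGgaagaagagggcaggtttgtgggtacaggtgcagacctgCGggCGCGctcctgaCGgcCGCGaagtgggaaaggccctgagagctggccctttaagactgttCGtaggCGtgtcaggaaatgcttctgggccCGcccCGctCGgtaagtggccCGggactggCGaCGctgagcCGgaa
Slc35e3: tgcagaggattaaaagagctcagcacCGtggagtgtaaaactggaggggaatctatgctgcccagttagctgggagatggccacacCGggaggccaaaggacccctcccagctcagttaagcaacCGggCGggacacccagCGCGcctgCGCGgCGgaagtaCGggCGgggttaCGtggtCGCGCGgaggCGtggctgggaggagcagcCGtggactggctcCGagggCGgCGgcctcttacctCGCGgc
Slc39a6: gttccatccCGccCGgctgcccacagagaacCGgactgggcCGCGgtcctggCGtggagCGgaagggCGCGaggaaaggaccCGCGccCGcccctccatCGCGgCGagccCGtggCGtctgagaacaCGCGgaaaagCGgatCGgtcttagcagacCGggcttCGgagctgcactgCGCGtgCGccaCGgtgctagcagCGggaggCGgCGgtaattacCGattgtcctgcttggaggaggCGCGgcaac
Slc44a4: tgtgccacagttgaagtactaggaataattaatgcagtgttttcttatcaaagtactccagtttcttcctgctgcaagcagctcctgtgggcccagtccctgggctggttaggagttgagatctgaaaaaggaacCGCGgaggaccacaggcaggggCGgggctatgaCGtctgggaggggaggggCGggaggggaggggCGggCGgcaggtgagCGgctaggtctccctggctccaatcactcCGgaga
Slc13a3: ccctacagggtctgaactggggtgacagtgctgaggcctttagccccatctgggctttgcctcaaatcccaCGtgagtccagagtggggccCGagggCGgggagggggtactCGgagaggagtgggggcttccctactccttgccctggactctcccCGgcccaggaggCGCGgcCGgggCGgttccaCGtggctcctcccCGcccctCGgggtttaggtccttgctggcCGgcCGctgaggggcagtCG
The 250 bases hold 30 CpGs at Slc39a13, 28 at Slc35a3, 18 at Slc35c1, 22 at Slc35e3 and 33 at Slc39a6, against 9 at Slc44a4 and 15 at Slc13a3. GRCr8 positions were not converted to Rnor_6.0, so the listed regions cannot be placed exactly on these letters. By the listed distances, the regions of Slc13a3 and Slc44a4 were centred 678 and 712 bp upstream, outside the 250 bases. Those of Slc35c1 and Slc35e3 were centred 326 and 79 bp downstream of the start. The CpG counts are therefore those of the printed bases and not of the listed regions.

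Regions within 1 kb of a start were listed for 33 solute carrier genes, and the RefSeq promoter table held 27 of them. Counted over the 300-base window of that table (250 bases before the start and 50 after it), the 25 genes with levels under 20% had 7 to 39 CpGs, with a median of 27, and 18 of the 25 had at least 20. Over all 33469 promoters of the table the median was 7 and 24.2% had at least 20. A listed region needs at least 10 CpGs, so stretches with fewer could not enter. This minimum does not hold for the promoter window, and Slc16a3, listed 9 bp from its start, had 7 CpGs there. The methylated genes, at 26 CpGs for Slc13a3 and 11 for Slc44a4, lay within that range, and Slc44a2 and Slc49a4, with levels of 7.72 and 2.28%, had 11 CpGs as well. The letters CCGG, which are the same on both strands and contain a CpG, and which are the site of the enzyme commonly used for RRBS, were in 22 of the 25 and in 51.4% of all promoters.

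Solute carrier regions lay near gene starts more often, and were less often highly methylated, than the listed regions as a whole, which is given as a description with no test. Of the 116 entries, 46 (39.7%) lay within 1 kb of the start, against 26.1% of all listed regions, and 76 (65.5%) within 10 kb, against 53%. By annotation 24 were in promoters, 14 in first exons, 10 in first introns, 17 each in later exons and in later introns, 1 at a transcript end and 33 between genes. Intergenic entries made up 28.4% of the members and 37.6% of all listed regions. In 63 entries the region lay in the promoter or body of the named gene, in 7 in that of another gene, and in 13 in that of a transcript that the tables pair with no gene. The mean over libraries was under 5% in 52 entries (44.8%, against 33.1% of all listed), from 5 to 20% in 39, from 20 to 80% in 17 (14.7%, against 29.9%) and above that in 8. Of the 52 low entries, 40 were within 1 kb of the start. The median level was 5.51%, against 12.8% for all listed regions, and the median size of the difference was 3.31 percentage points, against 3.73.

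**Figure D1:**
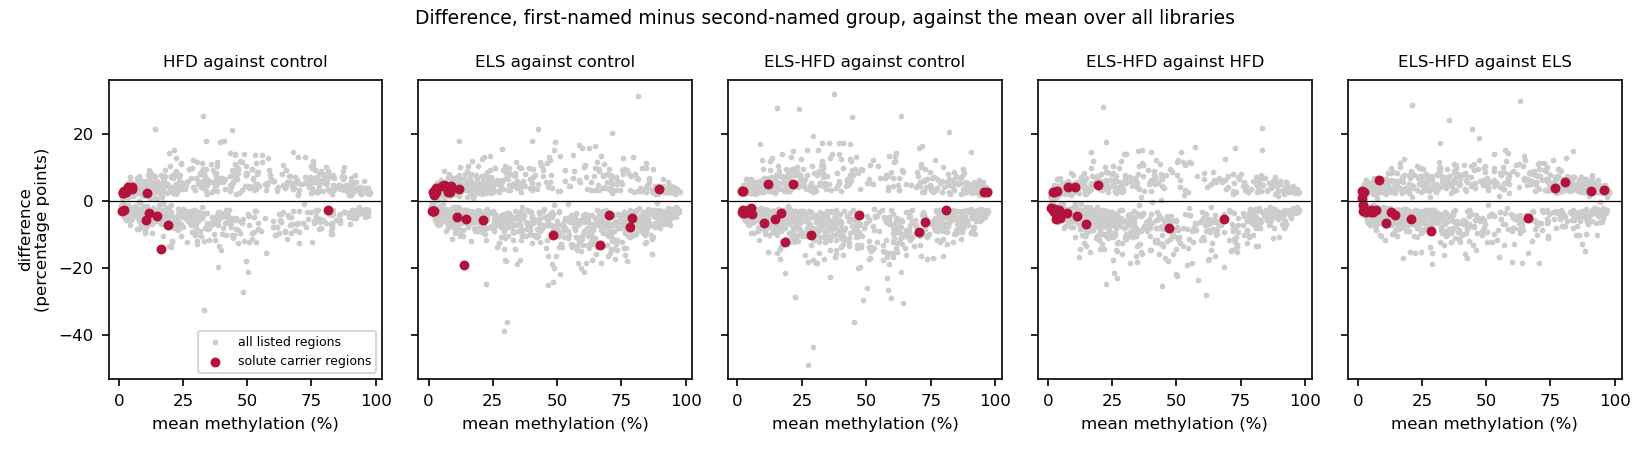
Each panel plots, for 1 comparison, the difference in percentage points (first-named minus second-named group) against the mean methylation in percent over the libraries of both groups, for all listed regions (grey) and for solute carrier regions (red). Few listed regions sit near a difference of 0, since the tables hold only differences of at least 2.5 points by the deposited values. Most red points lie at low methylation, and the lowest, at -19.1 in ELS against control, is Slc46a3.

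Depth per library is unknown, because levels were deposited as percentages with no read counts. Of 14 imprinted genes with a control region that is methylated from the mother and free of methylation in sperm, 4 were named in 28 entries, which need not lie in that region. In the 25 entries within 3.31 kb of a start the libraries ran from 0 to 17.2%, and in the other 3, in an intron 57.6 kb from the start of Zrsr1, from 8.04 to 33.3%. Among genes with control regions methylated from the father, Zdbf2 was at 93.5 to 99.1% in an intergenic region 18.2 kb from its start, and Dlk1 at 7.03 to 26.1% in its first intron, 8.63 kb from the start. Dazl, a germ cell gene methylated in somatic cells, was at 1.08 to 8.19%. Single libraries stood apart at solute carrier regions. The ELS library of the second table column was the lowest of its group in 63.0% of solute carrier entries in ELS against control (44.3% of all listed) and in 68.2% in ELS-HFD against ELS (45.7% of all listed). The ELS library of the first column was the highest in 44.4% and 68.2% of them (33.7% and 32.7% of all listed), and the HFD library of the second column in 50% in HFD against control (29.8%). The part of these libraries in the differences was not tested beyond the values without 1 library given below.

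High-fat diet alone was set against control in 20 solute carrier regions of 18 genes. The mean was lower in HFD at 8 and higher at 12, with a median difference of 2.52 points, against 2.45 over the 1583 listed regions. Of 11 regions with a mean under 5%, 9 were higher in HFD, against 372 of 626 such regions in the whole table. The 9 include both Slc39a13 regions. They also include Slc6a4, whose difference of 4.31 was 1.23 without the HFD library at 14.5%. The first-named group was higher at 6 of 10 such regions in ELS against control (228 of 514 of all listed) and 2 of 9 in ELS-HFD against control (160 of 615). It was higher at 3 of 15 in ELS-HFD against HFD (129 of 624) and 3 of 7 in ELS-HFD against ELS (122 of 454). In the authors' deposited table, Slc46a3 alone of the 20 had a q-value below 0.05, as did 0.632% of all listed regions. The libraries of the groups did not overlap at 7 (35%), against 22.6% of all listed regions. limma passed none after Benjamini-Hochberg adjustment over the whole table, where it passed 0% of all regions, and 8 of the 20 were at an unadjusted limma p under 0.05, against 22.8%. On the percent scale 2 were.

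Separation alone was set against control in 27 regions of 25 genes, of which 13 were lower and 14 higher in ELS. The median difference was 1.74 points, against -2.78 over the 1849 listed regions, of which 60.9% were lower. That median is the Slc43a2 entry, whose difference was 0.476 without the ELS library at 6.72%. Few listed differences lie near 0, so the median mainly reflects the near-even split of 13 and 14. Slc46a3 again was the 1 member with a q-value below 0.05 in the authors' deposited table, against 0.919% of all listed. Groups did not overlap at 10 (37%), against 25.7% of all listed regions, and at 16 without the control library of the first table column. limma passed 0 members, as it passed 0% of the table, with 10 at an unadjusted p under 0.05, against 26.9%. Without that same control library, limma passed Slc46a3 and Slco4a1 (adjusted p = 0.0402 for both), and it passed 0.216% of all listed regions. Without the control library of the third column, 5 members were at an unadjusted p under 0.05.

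Both exposures together were set against control in 24 regions of 23 genes, and 18 were lower in ELS-HFD (75.0%, against 70.0% of all listed). In the authors' deposited table no member had a q-value below 0.05, against 0.696% of all listed, and the lowest was 0.266, in Slc46a3. Groups did not overlap at 11 (45.8%), against 38.7% of all listed. By limma 9 of the 24 had an unadjusted p under 0.05, against 27.9%, and 0 passed the adjustment, against 0.107%. The count of 9 was 5 without the ELS-HFD library or the control library of the second column, and 4 without the control library of the third column or on the percent scale.

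In ELS-HFD against HFD, the comparison of separation under the high-fat diet, 17 of 23 regions were lower in ELS-HFD (73.9%, the same share as over all 1653 listed). In the authors' deposited table, no member had a q-value below 0.05, against 0.423%, and 8 did not overlap (34.8%, against 23.9%), or 13 without the HFD library of the first column. limma had 11 at an unadjusted p under 0.05, against 25.2%, and 0 after adjustment, against 0%. The count of 11 was 3 on the percent scale, 4 without the ELS-HFD library of the second column, 5 without the HFD library of the third column, and 7 without the ELS-HFD library of the first column or the HFD library of the second. In ELS-HFD against ELS, the comparison of diet after separation, 14 of 22 were lower in ELS-HFD (63.6%, against 61.9%). In the authors' deposited table, no member had such a q-value, against 0.686%, and 5 did not overlap (22.7%, against 24.1%). That count was 9 without the ELS-HFD library of the first or of the second column and 8 without the ELS library of the second column. limma had 7 at an unadjusted p under 0.05, against 27.3%, and 0 after adjustment, against 0%. The count of 7 was 1 on the percent scale, 3 without the ELS-HFD library of the second column or the ELS library of the first, and 4 without the ELS library of the third. Since regions were listed for their difference between these same libraries, these shares cannot be set against those of an unselected genome. For the same reason the limma p-values, adjusted ones included, cannot be read as those of regions chosen beforehand. The p-values measure only the spread between these libraries.

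The Slc46 family holds both called entries. Slc46a3 encodes a lysosomal membrane transporter, and the region in intron 2 of 5, about 3.6 kb from the start, was the 1 solute carrier locus listed in all 5 comparisons (chr12:8729019-8729393 at its widest, with 41 CpGs). In ELS against control (chr12:8729019-8729288, 38 CpGs) it had 7.27, 3.46, 5.56 and 5.66% in ELS libraries, against 4.94, 32.96 and 35.9% in control libraries, a difference of -19.1 percentage points, and its q-value in the authors' deposited table was 2.25e-10. In HFD against control it had 28.3, 3.39, 4.11 and 5.05% in HFD libraries, against 4.89, 32.98 and 35.98% in control libraries, a difference of -14.4 (in the authors' deposited table, q = 7.04e-06). In ELS-HFD against control the ELS-HFD libraries were at 3.88, 29.96 and 3.27%. The groups overlapped in every comparison with control, since 1 control library lay among the low ones. Without that library the difference from control was -28.95 points in ELS and -24.3 in HFD, and without the control library at 35.98% that of HFD was -8.71. The ELS-HFD difference from control, -12.2 with all libraries, ran from -22.1 to -6.57 with 1 library left out.

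Library values at Slc46a3 fell into 2 separate levels, not graded by group. In the comparisons with control, 4 of 14 libraries were at 28.3 to 35.98% (2 control, 1 HFD and 1 ELS-HFD library) and the remaining 10 at 3.27 to 7.27%. The libraries high at the locus sat in the same table columns in each comparison that listed them. Over libraries an exact two-sided permutation test gave p = 0.229 for ELS, p = 0.171 for HFD (smallest possible 0.0571 for both) and p = 0.2 for ELS-HFD against control (smallest possible 0.1). The difference in ELS-HFD against ELS was 6.29 points and turned to -1.75 without the ELS-HFD library at 28.1%, and that in ELS-HFD against HFD was 4.33 and turned to -4.55 without the one at 30.6%.

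**Figure D2:**
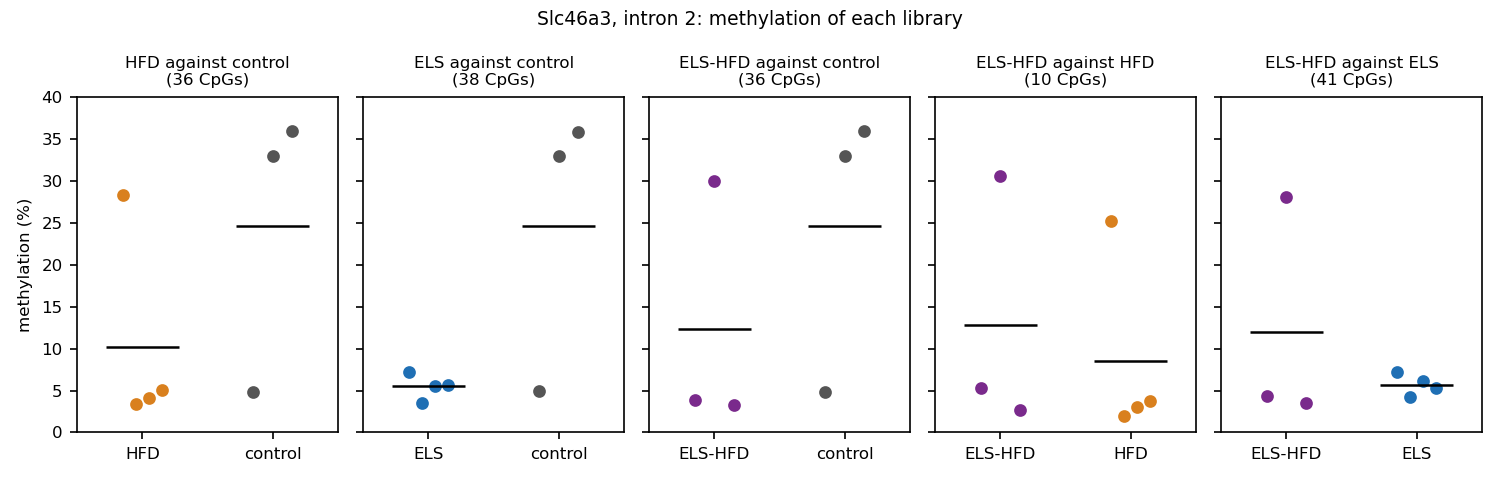
Methylation in percent of each library (points) and the group mean (black line) at the Slc46a3 intron 2 region, in the 5 comparisons, with the first-named group on the left and the number of CpGs of the listed interval above. One control library sits near 5% and the other 2 above 30%, while 1 HFD and 1 ELS-HFD library stand above 25% and all ELS libraries below 8%.

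Slc46a2, a related transporter of thymic stroma, had a partly methylated region 13.8 kb upstream, between genes (chr5:77187228-77187343). Its values were 49.8, 34.3, 51.9 and 40.6% in ELS libraries, against 42.5, 51.97 and 68.4% in control libraries, and the difference of -10.1 points came with overlap and was -3.09 without the control library at 68.4%. Libraries overlapped in ELS-HFD against HFD too, where the difference of -8.095 was -2.70 without the ELS-HFD library at 31.7%. In ELS-HFD against control the difference of -4.11 turned to 3.87 without the ELS-HFD library at 29.3% and to 2.28 without the control library at 62.1%.

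Zinc carriers were listed 11 times, at 6 loci of 5 genes, with 6 entries lower, 5 higher and 5 without overlap. Over all listed regions of the 5 comparisons 62.4% were lower and 27.3% without overlap, and the counts of the classes below are set against the same shares. The Slc39 family brings zinc into the cytosol and the Slc30 family takes it out. Slc39a6, a plasma membrane zinc importer, had the smallest unadjusted p of all solute carrier entries at its start (chr18:16543973-16544033, 10 CpGs, 11 bp from the start, in a promoter annotated to a transcript of Elp2). It had 6.57, 4.06, 2.29 and 4.41% in ELS libraries, against 0.25, 0.667 and 0.593% in control libraries. Every ELS library was above every control library, a difference of 3.83 percentage points (limma adjusted p = 0.0952). The sequence printed above for Slc39a6 has the most CpGs of those shown.

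Slc39a13, a zinc transporter of intracellular vesicles needed for connective tissue, was listed at a promoter region and at its first exon. In the promoter it had 5.05, 3.004, 4.25 and 2.52% in HFD libraries, against 0.423, 1.07 and 1.905% in control libraries (chr3:79892649-79892718), and 0.815, 0.371 and 0.641% in ELS-HFD libraries, against 2.06, 5.27, 2.31 and 2.82% in HFD libraries in the wider interval chr3:79892479-79892718. HFD libraries were the higher ones in both comparisons, without overlap, by 2.57 points over control (limma adjusted p = 0.151), and the ELS-HFD difference from HFD was -2.505 (limma adjusted p = 0.159). The HFD libraries are shared by both comparisons. The first exon (chr3:79892243-79892317) had 1.21, 11.5, 1.06 and 1.995% in HFD libraries, against 0.791, 1.27 and 1.11% in control libraries, and there a single HFD library carried the difference of 2.88. With that library ELS-HFD minus HFD was -2.92, from ELS-HFD levels of 1.79, 0.455 and 0.819%.

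Slc39a3, another zinc importer, had 0.433, 1.95, 5.69 and 4.302% in ELS libraries, against 0.222, 0 and 0.551% in control libraries at its promoter (chr7:11544957-11545000). Its groups overlapped by the lowest ELS library. Slc39a11, a zinc transporter of internal membranes, was mostly methylated in intron 3, with 75.3, 72.9, 79.7 and 80.7% in ELS libraries, against 84.6, 80.3 and 81.7% in control libraries, a difference of -5.08, and in ELS-HFD against ELS it was 5.56, and the groups overlapped in both. Slc30a5, which loads zinc into the Golgi, was nearest to an intergenic region 117702 bp away (chr2:30963663-30964039). There the libraries were 9.39, 4.91 and 7.49% in ELS-HFD, 10.03, 6.697, 9.67 and 8.72% in ELS and 8.47, 10.4, 4.66 and 8.89% in HFD, against 13.8, 10.4 and 16.9% in control. Differences were -6.403 for ELS-HFD, -4.89 for ELS, both without overlap, and -5.55 for HFD, where the highest HFD library lay just above the lowest control one. The 3 comparisons share the control libraries, and limma gave adjusted p = 0.1696, 0.197 and 0.221 in that order.

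Nucleotide sugar carriers of the Slc35 family supply the Golgi with building blocks for glycans. They were listed 8 times at 5 loci of 5 genes, with 6 entries lower (62.4% of all listed) and 5 without overlap (27.3% of all listed), all within 1 kb of a start. Slc35a3, which carries UDP-N-acetylglucosamine, had 0.675, 1.19, 0.333 and 0.639% in HFD libraries, against 3.36, 1.99 and 5.09% in control libraries at chr2:219741903-219742000 in its promoter (12 CpGs). Over the same interval the ELS-HFD libraries were at 0, 0.833 and 0.942%. Both exposed groups lay below all control libraries, with differences of -2.89 for ELS-HFD (limma adjusted p = 0.126) and -2.77 for HFD (adjusted p = 0.138), against the same control libraries.

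Slc35c1, the GDP-fucose carrier, had 0.385, 0, 0 and 1.75% in ELS libraries, against 3.57, 2.75 and 3.96% in control libraries in a promoter 326 bp from its start (chr3:81368048-81368185). That promoter is annotated to a transcript that the tables pair with no gene. No ELS library reached the lowest control library, a difference of -2.89 (limma adjusted p = 0.0952). Slc35e3, a family member with no assigned substrate, had 0, 0.265 and 0.143% in ELS-HFD libraries, against 3.03, 1.08 and 6.37% in control libraries (chr7:60778031-60778083, 14 CpGs), again without overlap (-3.36, adjusted p = 0.1199). Its ELS libraries, at 1.56, 0, 0.686 and 0%, overlapped with control. Slc35g2, also without an assigned substrate, went the other way under the diet, with 0.8798, 4.12, 5.06 and 3.55% in HFD libraries, against 0.642, 0.256 and 0.334% in control libraries (chr8:108881271-108881350, difference 2.99, no overlap), while ELS-HFD minus HFD was -2.36 with overlap. Slc35a1, the CMP-sialic acid carrier, had 11.3, 15.7, 9.51 and 11.8% in HFD libraries, against 9.51, 8.97 and 10.5% in control libraries in intron 1 (2.401).

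**Figure D3:**
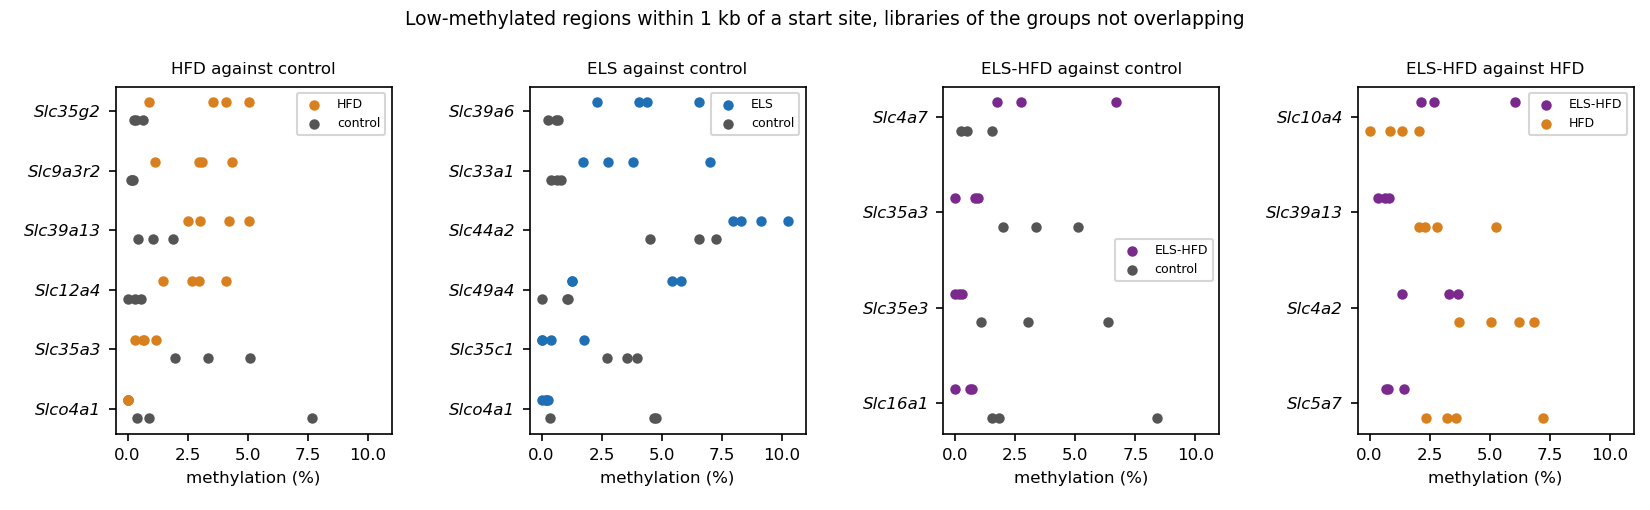
Methylation in percent (horizontal axis) of each library at low-methylated regions within 1 kb of the named gene's start where the libraries of the groups did not overlap, by comparison. The first-named group is drawn above the other in each row, and all values lie between 0 and 11%. In HFD against control 4 of the 6 genes drawn have the HFD libraries on the right, and in ELS-HFD against HFD 3 of 4 have the ELS-HFD libraries on the left.

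Organic anion and bile acid carriers were listed at few loci. Slco4a1, an organic anion transporter that takes up thyroid hormone among others, had a lower mean than control in intron 1 in all 3 exposed groups, which share the control libraries. Its values were 0.188, 0.275, 0 and 0.188% in ELS libraries, against 0.341, 4.67 and 4.79% in control libraries (chr3:175839139-175839251, 17 CpGs). In the HFD comparison all 4 HFD libraries were listed at 0, against 0.4, 7.69 and 0.909% in control libraries (chr3:175839192-175839255). The ELS-HFD libraries were at 0.852, 0 and 0.625% and overlapped with control, while the other exposed groups did not. In the comparison with ELS 1 control library lay just above the ELS range, and in that with HFD 1 control library was far above the other 2.

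Slc51b encodes the beta subunit of the bile acid and steroid exporter of the basolateral membrane. Its region 2.3 kb upstream had 3.99, 3.02 and 4.27% in ELS-HFD libraries, against 8.56, 8.07 and 5.82% in control libraries (chr8:70935218-70935295) and, in the comparison with ELS, 4.02, 3.24 and 3.63% in ELS-HFD libraries, against 6.89, 5.57, 6.89 and 6.28% in ELS libraries. ELS-HFD libraries were below all others in both, with differences of -3.72 and -2.78 points (limma adjusted p = 0.1497 and 0.145). Slc10a6, a carrier of steroid sulfates, was nearest to a region 13594 bp upstream in an intron of a transcript that the tables pair with no gene. Its differences from control were -5.47 in ELS-HFD, -5.34 in ELS and -4.57 in HFD, with overlap in each, and 1 control library was low in HFD against control (9.54, 20.7 and 22.2%). Slc10a4, a vesicle membrane member of that family in neurons, had 2.14, 2.67 and 6.08% in ELS-HFD libraries, against 0, 1.36, 0.858 and 2.05% in HFD libraries in its first exon, without overlap (2.56).

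Amino acid carriers include Slc7a10, which exchanges small neutral amino acids including D-serine and had 2 intergenic loci upstream. At the locus 9.4 to 9.5 kb from the start, both separated groups had the higher mean. The region had 10.3, 9.57, 12.6 and 10.5% in ELS libraries, against 7.68, 6.06 and 5.196% in control libraries (chr1:91423528-91423640). In ELS-HFD against HFD it had 8.16, 8.795 and 13.1% in ELS-HFD libraries, against 6.005, 5.17, 4.56 and 7.67% in HFD libraries, and ELS-HFD libraries were also above control at chr1:91423493-91423716. No overlap was seen in any of the 3, with differences of 4.43, 4.18 and 5.14 points. limma gave adjusted p = 0.1503, 0.205 and 0.225 in that order. ELS against control and ELS-HFD against HFD share no library. Of the other loci listed in both, those of Slc46a2 and Slc5a8 were lower in both. Those of Slc46a3 and Slc7a1 and the other Slc7a10 locus went in opposite directions. In a limma fit over all 4 groups the interaction of separation and diet had an adjusted p of 0.9997 there. Regions entered that fit only if 2 comparisons had listed them for a difference, so neither the shared direction nor this p is evidence of an effect.

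At the other Slc7a10 locus, about 30 kb from the start, the HFD libraries were below control, 18.02, 16.8, 11.8 and 17.4% in HFD libraries, against 19.1, 27.9 and 22.3% in control libraries (-7.12, no overlap). ELS was -5.56 points from control with overlap. ELS-HFD was higher than control and than HFD by 5.204 and 4.89, in intervals that share part of their bases with that of HFD against control. One ELS-HFD library of the 3 stood low, in the values 31.03, 12.4 and 28.9% in the comparison with control, so the libraries overlapped in both of these comparisons.

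Slc7a1, a carrier of arginine and lysine, was nearest to a region 58.6 kb upstream, between genes. It had 15.1, 15.001, 11.96 and 11.3% in ELS libraries, against 12.8, 6.42 and 9.71% in control libraries (chr12:7974051-7974327, 3.71 points, overlapping). With the diet it ran the other way, at 6.66, 3.43 and 5.35% in ELS-HFD libraries, against 7.96, 3.97, 14.8 and 8.31% in HFD libraries, -3.61 points with overlap. In ELS-HFD against ELS the libraries did not overlap, at 8.91, 5.28 and 6.84% against 15.6, 15.1, 12.6 and 11.5% (-6.66 points, limma adjusted p = 0.112). The interaction of separation and diet had a limma adjusted p of 0.4104. A second Slc7a1 locus, 50.1 kb upstream, was 2.54 in ELS against control, with overlap.

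The heavy chains Slc3a1 and Slc3a2 carry Slc7 light chains to the plasma membrane. Slc3a1 was low in intron 4 (chr6:8298381-8298713), with 2.27, 0.278 and 0.947% in ELS-HFD libraries, against 2.61, 4.37, 5.79999 and 3.71% in HFD libraries, and with 2.099, 0.256 and 0.874% in ELS-HFD libraries, against 4.76, 2.15, 4.12 and 6.78% in ELS libraries. ELS-HFD lay below both groups without overlap, with differences of -2.96 and -3.37 points (limma adjusted p = 0.159 and 0.104), and the ELS-HFD libraries are shared. Slc3a2 differed by -2.18 in ELS-HFD against control, with overlap. Slc1a6, a glutamate carrier of Purkinje cells, had a pair of neighbouring intergenic regions about 6.8 kb upstream, at -2.86 in ELS-HFD against ELS and -2.81 against control, both overlapping. Slc38a1, a sodium-coupled glutamine carrier, had 0, 0.0916 and 0.1905% in ELS-HFD libraries, against 0, 5.73, 1.46 and 1.19% in HFD libraries in a promoter 123 bp from its start, and Slc43a2, a carrier of large neutral amino acids, 2.04, 1.87, 6.72 and 1.11% in ELS libraries, against 1.22, 0.478 and 1.89% in control libraries in intron 1. In each, 1 library of 4 stood well above the other 3. The promoter at Slc38a1 is annotated to a transcript that the tables pair with no gene.

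Several members carry neurotransmitters or choline. Slc6a4, the serotonin transporter, was nearest to a region 10013 bp upstream (chr10:63186454-63186498). All 3 ELS-HFD libraries were listed at 0, against 2.22, 14.5, 4.17 and 0% in HFD libraries, and 0.833, 1.11 and 0.769% in control libraries. The HFD libraries overlapped with both groups, and 1 of them was also listed at 0. Slc6a2, the noradrenaline transporter, had 4.202, 6.804, 0.526 and 1.003% in HFD libraries, against 0, 1.15 and 0.408% in control libraries in a promoter 398 bp from its start. The annotation gives this promoter to a transcript that the tables pair with no gene. Slc6a17, which fills synaptic vesicles with neutral amino acids, had 0.403, 0 and 1.08% in ELS-HFD libraries, against 6.11, 0.827, 4.22 and 3.77% in HFD libraries in exon 1 of 1 (-3.24, limma adjusted p = 0.168), and 1 ELS-HFD library lay within the HFD range.

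Slc5a7, the high-affinity choline transporter of cholinergic neurons, had 0.676, 1.42 and 0.752% in ELS-HFD libraries, against 3.25, 3.5997, 2.35 and 7.22% in HFD libraries in intron 1 (chr9:5330615-5330669), without overlap (-3.15, limma adjusted p = 0.159). Against control the same HFD libraries differed by 2.92 with overlap. Slc44a2, a choline-like transporter, had 10.3, 7.97, 9.16 and 8.298% in ELS libraries, against 7.27, 4.503 and 6.57% in control libraries at its start without overlap (2.81). Slc44a4, of the same family, was methylated 712 bp upstream (chr20:4592585-4592770), with 91.1, 86.6, 95.2 and 91.3% in ELS libraries, against 92.3, 88.7 and 81.2% in control libraries. Its groups overlapped.

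Mitochondrial carriers of the Slc25 family were listed 14 times at 8 loci of 7 genes, with 7 entries lower, 7 higher and 3 without overlap (27.3% of all listed). Slc25a33 imports pyrimidine nucleotides. Its nearest region, 32.3 kb upstream between genes, had 8.62, 4.81, 6.58 and 12.1% in ELS libraries, against 3.34, 3.97 and 2.67% in control libraries (chr5:166758984-166759091), a difference of 4.69 without overlap (limma adjusted p = 0.135). HFD libraries were at 1.99, 8.98, 8.303 and 6.97% and 1 of them was below control, while ELS-HFD libraries stood close together at 5.55, 5.65 and 5.87% over a wider interval. Slc25a29, which carries basic amino acids, was methylated in its last exon, with 79.6, 71.5, 75.3 and 73.9% in ELS libraries, against 79.5, 79.2 and 89.7% in control libraries (-7.72, overlapping). Its differences of -2.53 in HFD and -2.74 in ELS-HFD against control turned to 0.914 and 0.786 without 1 control library at 89.7 and 89.3%.

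Slc25a39, a carrier of glutathione into mitochondria, had 4.099, 3.29 and 3.93% in ELS-HFD libraries, against 1.86, 0.651, 1.77 and 0.296% in ELS libraries at a region 1.3 kb upstream (chr10:90357436-90357557, 16 CpGs), higher in ELS-HFD without overlap (2.63, limma adjusted p = 0.104). Slc25a34 was nearest to an exon of a transcript that the tables pair with no gene, where the difference was -2.86 in ELS-HFD against control, without overlap, and -2.66 in ELS-HFD against HFD, with overlap. Slc25a25, a carrier of ATP-magnesium and phosphate, was -5.02 and Slc25a30 0.951 in ELS-HFD against ELS, again overlapping.

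Carriers of lactate, sugars and other energy substrates followed no common direction. Slc16a1, the main carrier of lactate and ketone bodies, had 0.625, 0 and 0.667% in ELS-HFD libraries, against 1.54, 8.41 and 1.82% in control libraries in its first exon (chr2:207108637-207108683), without overlap but with 1 control library far above the others (-3.49). ELS libraries, at 1, 0.833, 1.74 and 0%, overlapped with control. Slc16a3, the lactate exporter of glycolytic cells, had 14.3, 0.256, 1.82 and 0.278% in ELS libraries, against 1.54, 0.192 and 2.29% in control libraries at its start, and its difference of 2.82 turned to -0.557 without the ELS library at 14.3%. Slc16a6, a taurine and ketone body carrier, was lower in ELS-HFD in its last exon, with 10.2, 10.2 and 11.7% in ELS-HFD libraries, against 17.3, 12.8, 18.98 and 21.6% in HFD libraries, without overlap (chr10:97736035-97736133, -6.97). At its promoter HFD libraries were 0.298, 2.78, 1.69 and 6.25% against 0, 0 and 0.694% in control, and ELS-HFD minus HFD was -2.81, both overlapping.

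Slc2a12, an insulin-responsive glucose transporter, was partly methylated in intron 1, 4.2 kb into the gene (chr1:24052106-24052232). It had 25.8, 14.9 and 29.6% in ELS-HFD libraries, against 35.9, 34.1 and 30.5% in control libraries, without overlap, a difference of -10.1 (limma adjusted p = 0.232), and against ELS the difference of -8.83 overlapped. Without the ELS-HFD library at 14.9% the difference from control was -5.79 points and that from ELS -4.55, and without the ELS library at 49.2% the difference from ELS was -3.18. Slc2a13, the proton-coupled inositol transporter, was higher in ELS-HFD in its first exon than in control (2.896), HFD (2.62) and ELS (3.02), with overlap in each because 1 ELS-HFD library was at 0 to 0.303%. Slc2a7, an intestinal sugar transporter, was -3.42 and -5.26 in ELS-HFD against control and ELS, overlapping.

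Slc5a8, a sodium-coupled carrier of lactate and short-chain fatty acids, was nearest to a methylated region 99.7 kb downstream of its start, in exon 14 of 25 of a transcript that the tables pair with no gene. It had 70.04, 68.3, 62.2 and 44.5% in ELS libraries, against 80.4, 73.7 and 68.6% in control libraries (chr7:29535069-29535137), -12.98 points, and ELS-HFD was -9.34 from control and -5.26 from HFD. All 3 overlapped. Without the ELS library at 44.5% the difference of ELS from control was -7.39 points. Slc13a3, a kidney carrier of dicarboxylates, was methylated 678 bp upstream (chr3:162148010-162148133), with 67.6, 69.96 and 70.9% in ELS-HFD libraries, against 76.1, 72.04 and 78.7% in control libraries, without overlap (-6.15, limma adjusted p = 0.299). Slc13a2, a carrier of citrate and other dicarboxylates, was -4.38 in ELS-HFD against HFD at a transcript end 27.3 kb away, with overlap.

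**Figure D4:**
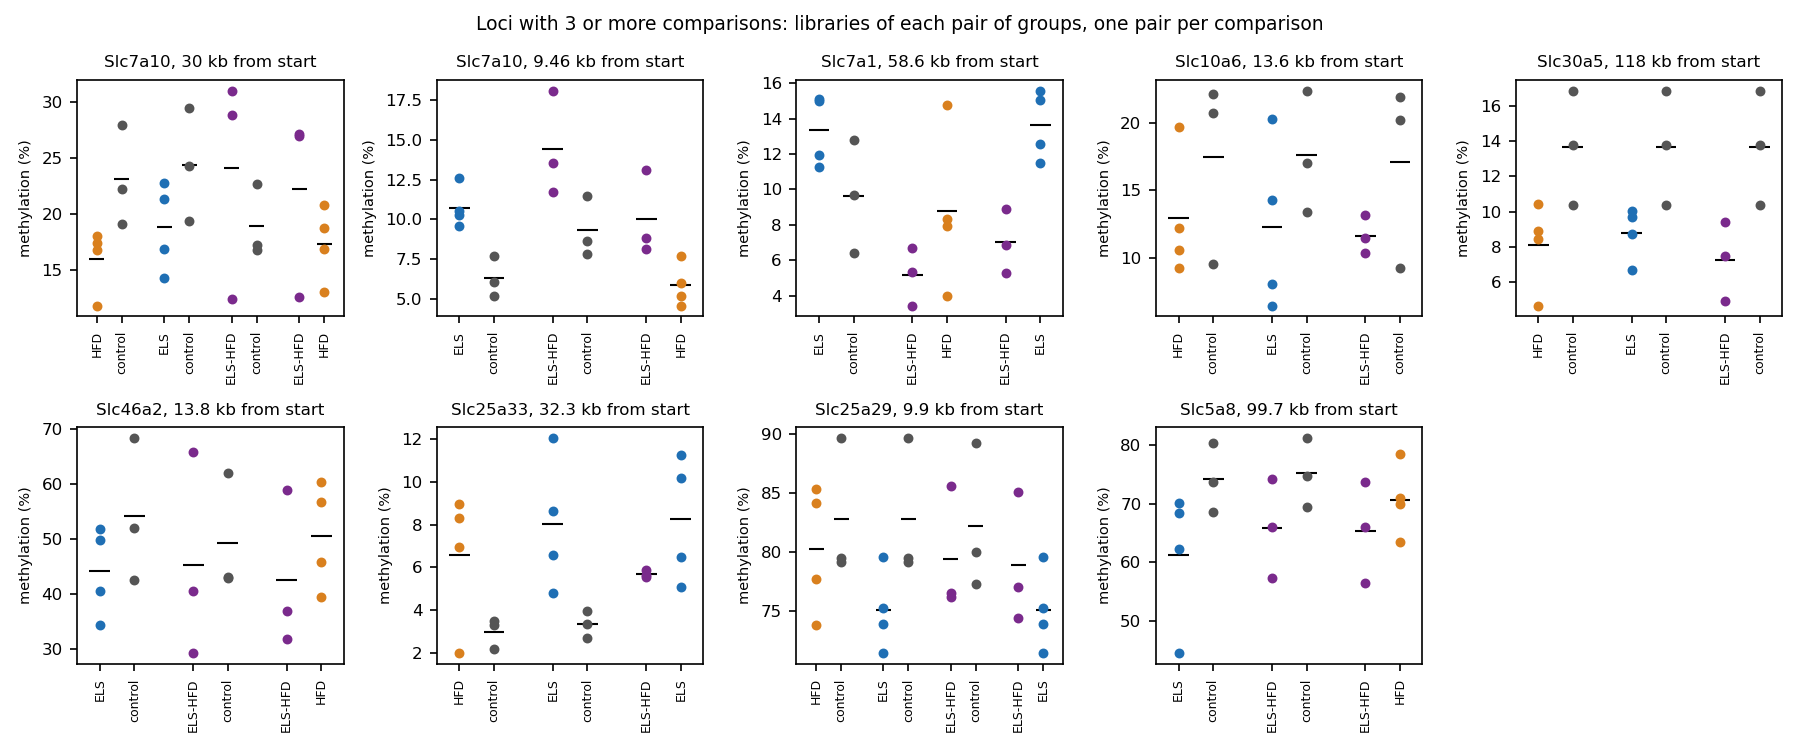
Methylation in percent of each library (points) and group means (lines) at the 9 loci, other than Slc46a3, with a mean of at least 5% that were listed in 3 or more comparisons; each pair of columns is 1 comparison, its first-named group on the left, and the title gives the distance to the start of the named gene. The vertical axes differ and do not start at 0. Separated groups lie above the groups beside them at Slc7a10 9.46 kb from the start. The control mean is the highest at Slc30a5, and also at Slc10a6, Slc25a29 and Slc5a8.

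Ion exchangers and cotransporters were listed at single loci. Slc12a4, a potassium-chloride cotransporter of many tissues, had 1.49, 2.98, 4.11 and 2.69% in HFD libraries, against 0.576, 0.321 and 0% in control libraries at its promoter (chr19:37938980-37939048), without overlap (2.52, limma adjusted p = 0.116). The exchanger scaffold Slc9a3r2 had 3.11, 4.35, 1.13 and 2.96% in HFD libraries, against 0.233, 0.188 and 0.164% in control libraries in its first exon (chr10:14013545-14013606), also without overlap (2.69, limma adjusted p = 0.116). In both genes every HFD library was above 1% and every control library below. Slc12a5, the neuronal potassium-chloride cotransporter, was -3.501 in ELS-HFD against control at its promoter, and Slc12a9 3.04 in ELS against control 5.3 kb upstream, both overlapping.

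Bicarbonate carriers, which take part in pH control in sperm, had 4 entries at 4 loci and no overlap in any, against 38.7% of all listed regions in ELS-HFD against control, which held 2 of them, and 23.9% in ELS-HFD against HFD, which held the other 2. Slc4a7, a sodium bicarbonate cotransporter, had 1.74, 6.67 and 2.74% in ELS-HFD libraries, against 0.222, 1.53 and 0.488% in control libraries at its start (2.97). Slc4a2, an anion exchanger of many epithelia, had 3.31, 1.35 and 3.69% in ELS-HFD libraries, against 3.74, 6.21, 5.06 and 6.86% in HFD libraries in intron 1 (-2.68) and 97.5, 97.1 and 99.6% in ELS-HFD libraries, against 95.1, 94.2 and 96.4% in control libraries in intron 2 (2.81), so that the locus near the start was low and the one 4.0 kb from the start nearly fully methylated. Slc4a1, the anion exchanger of red cells, was nearest to an exon 3649 bp from its start, in a transcript that the tables pair with no gene, with 5.64, 6.66 and 3.72% in ELS-HFD libraries, against 2.39, 2.101, 1.11 and 3.57% in HFD libraries (3.05). limma adjusted p ran from 0.149 to 0.201 in these 4.

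Sodium-proton exchangers were listed at Slc9a9, of endosomes, and Slc9b2. Slc9a9 had 5.53, 5.32, 7.52 and 11.002% in ELS libraries, against 3.68, 3.53 and 1.24% in control libraries in intron 4, without overlap (4.53, limma adjusted p = 0.129). Slc9b2 was methylated at its promoter, at 92.4 ± 2.97% in ELS-HFD and 89.4 ± 2.35% in ELS (SD, n = 3 and 4, overlapping). Slc24a5, a calcium exchanger of pigment granules, was methylated in its first exon, with 68.6 ± 9.13% in ELS and 72.7 ± 5.84% in control (SD, n = 4 and 3, overlapping). Slc24a2, a calcium exchanger of neurons and cones, was nearest to an intergenic region 147.3 kb away, -3.204 in ELS-HFD against ELS without overlap.

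The heme carrier Slc48a1 and the iron carrier Slc40a1 showed overlap at each of their loci. Slc48a1, which moves heme out of lysosomes, was nearest to 2 loci in exons of Hdac7, a histone deacetylase gene. At chr7:139290235-139290412 libraries were 0.947, 2.197 and 2.34% in ELS-HFD libraries, against 5.23, 11.4, 9.65 and 1.61% in HFD libraries, and the control libraries were 0.4902, 3.74 and 3.85%. ELS-HFD minus HFD was -5.15, ELS-HFD minus ELS -2.72 and HFD minus control 4.29, each with overlap. This locus had the smallest adjusted p for the interaction of the 8 solute carrier loci that could be fitted over all 14 libraries (limma adjusted p = 0.355). The share of fitted regions with an interaction p under 0.05 was 12.6% over all 499, and 0% passed the adjustment, against 1 and 0 of the 8. The other locus was -3.51 in HFD against control and -3.37 in ELS-HFD against ELS, overlapping. Slc40a1, the iron exporter, was -3.27 in ELS-HFD against ELS at a region 56979 bp away.

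The remaining carriers each had a single entry. Slc33a1, which brings acetyl-CoA into the endoplasmic reticulum, had 3.81, 1.71, 7.01 and 2.77% in ELS libraries, against 0.811, 0.652 and 0.392% in control libraries in its first exon (chr2:154542284-154542375, 15 CpGs), without overlap (3.21, limma adjusted p = 0.102). Slc49a4, a lysosomal membrane transporter, had 5.83, 1.25, 1.27 and 5.45% in ELS libraries, against 1.04, 1.11 and 0% in control libraries in its first exon, also without overlap (2.73). Slc29a3, a lysosomal nucleoside carrier, was nearest to an intron of Unc5b and was -4.205 in ELS-HFD against ELS with overlap. Slc34a2, a sodium-phosphate cotransporter of lung and gut, was -1.22 in the same comparison, with overlap.

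Many of the small differences lay close to 2.5 points, the smallest deposited difference. Their median size was 2.89 in the entries with a mean under 5%. Leaving out each library in turn, the difference was under 2.5 points without at least 1 of them in 79 of the 116 entries (68.1%, against 62.9% of all listed). The same held in 48 of the 52 entries with a mean under 5% (92.3%, against 85.6%). These counts include entries whose recomputed difference was already under 2.5 points with all libraries. The difference fell below 50% of its size without 1 library in 37 entries (31.9%, against 41.3% of all listed). It turned sign in 6 entries (5.17%, against 8.43%), those of Slc46a3, Slc46a2, Slc25a29 and Slc16a3 given above. Groups did not overlap at 41 of the 116 entries (35.3%, against 27.3% of all listed), in 31 genes. In each comparison, listed regions with a mean under 5% lacked overlap more often than the others. In HFD against control these were 205 of 626, against 153 of 957 at or over 5%. Such low regions made up 44.8% of the members and 33.1% of all listed. The part of this in the share of 35.3% was not tested. At an unadjusted limma p under 0.05 were 45 entries (38.8%, against 26.1%). On the percent scale these were 17 (14.7%, against 14.3%), a share close to that of all listed regions, and among regions with a mean of at least 5% they were 15 of 64 (23.4%, against 17.4%). In the logit fit the smallest adjusted p was 0.0952, for Slc39a6 and Slc35c1.

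Other transport genes, looked up by list, held no called region by the authors' deposited tables (q-value under 0.05). Of all 8555 listed regions, 58 were called there. ABC transporters had 15 entries of 8 genes, 8 lower and 7 higher, none without overlap. ATPase genes had 23 entries of 13 genes, 15 lower and 8 without overlap. Over all listed regions 62.4% were lower and 27.3% without overlap. Among aquaporins Aqp3 alone was listed (7 entries, 5 lower, 2 without overlap), and carrier partners with the Mfsd family had 10 entries of 7 genes, 8 lower and 5 without overlap. The largest difference of these was at the first exon of Atp7b, a copper pump, at 69.5 ± 18.1% in ELS libraries and 87.4 ± 18.5% in control libraries (SD, n = 4 and 3), with overlap.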

How the data were processed

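Sperm DNA of 14 libraries was measured by RRBS. The labels' protocols name a semen spin kit for the DNA and the Zymo-Seq RRBS kit for the libraries. Trim Galore, Bismark, Bowtie and the assembly Rnor_6.0 are named in the submitters' processing notes, without versions. The deposited tables hold, per the file headers, region coordinates in the format of the caller metilene, methylation in percent per library and group, differences in percentage points, and p-values and q-values. Caller settings and any coverage filter are not given in the sources used here, nor is the tool that annotated the nearest promoter. The difference columns of the deposited tables for ELS-HFD against HFD and ELS-HFD against ELS run the other way, so every difference was recomputed from the library columns. The recomputed values departed from the deposited ones by up to 1.88 points, with 0 sign changes. The deposited q-value equals 1 in 98% of the listed regions and in 113 of the 116 solute carrier entries. It takes CpGs as observations and does not measure the spread between animals.

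No label spells out the group codes of the columns; letters and column numbers (3, 4, 4 and 3) gave the groups. The series' design text is about amygdala RNA and was not followed. At identical intervals in 2 tables, 87.2 to 96.2% of values agreed within the same column and at most 0.253% between different columns, so columns were taken as the same library across tables.

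limma 3.58.1 in R 4.3.3 was fitted to log2((percent + 1) / (100 - percent + 1)) of all listed regions of a table, two-sided, with Benjamini-Hochberg adjustment over the table and a threshold of 0.05, after a test on simulated data. The interaction was fitted to 499 regions with values of all 14 libraries, joined between tables by a reciprocal overlap of at least 50%. The exact permutation test at Slc46a3 used SciPy 1.17.1. Depth is unknown, so no counting error is given. The labels do not say whether libraries are separate animals. Promoter sequences are from RefSeq (GRCr8). Of the 62 member names, 61 are current RefSeq symbols.

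The members and lists were chosen with earlier results of these data known. Genes are named where their region had a q-value under 0.05, was among the 5 largest increases or decreases or the 3 smallest limma p-values of a comparison, lay in a promoter, was listed in 2 or more comparisons, or led its transport class. The remaining genes were named after their values were seen, to account for the members, except 1 that is not reported here. Alternatives were a stricter q-value, a larger difference, a CpG minimum of 15, a distance limit of 10000 bp, the percent scale, another offset, a filter on low values and leaving out each library.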

Additional observations from a re-analysis of the deposited data

Results flagged for a closer look

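Groups of 4 libraries were checked for a library far from the others, 92 groups in all, and 6 had one. About 1 in 20 such groups would be picked out if values were independent and normally distributed. These percentages are neither, and the HFD libraries at Slc46a3 and Slc39a13 are each counted in both of their comparisons. The 6 of 92 can therefore not be set against that rate. In ELS against control, 1 ELS library stood at 6.716% at intron 1 of Slc43a2, a carrier of large neutral amino acids, while the other ELS libraries were at 1.11 to 2.04%. At the start of Slc16a3, a lactate exporter, 1 ELS library stood at 14.29% and the others at 0.256 to 1.82%. One HFD library was at 28.32% at the Slc46a3 intron in HFD against control, with the others at 3.39 to 5.05%, and the HFD library of the same table column was at 25.25% in ELS-HFD against HFD, with the others at 1.97 to 3.70%. In the first exon of Slc39a13, a zinc transporter, 1 HFD library was at 11.49% in both of its comparisons and the others at 1.06 to 1.995%. These libraries sit in different table columns. The part of the libraries in each difference is given by the values without 1 library, and the cause was not tested.

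At the intergenic locus upstream of Slc7a1, an arginine carrier, the 2 comparisons of separation went in opposite directions. ELS minus control was 3.71 points and ELS-HFD minus HFD was -3.61, and the second minus the first was -7.32. The limma interaction had an adjusted p of 0.4104, so the difference between them did not pass the test.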

How the results depend on the processing

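Each result was recomputed with 1 choice changed at a time. The percent scale, another offset and a filter on low values left the count of solute carrier regions that passed limma at 0 in each comparison, and the percent scale and a reciprocal overlap of 80% left that of the interaction at 0. A q-value under 0.01 and a difference of at least 5 points left Slc46a3 as the called region in ELS against control and in HFD against control. On the percent scale, the regions at an unadjusted limma p under 0.05 numbered 7 in ELS against control (10 on the logit scale), 1 in ELS-HFD against ELS (7), 3 in ELS-HFD against HFD (11), 4 in ELS-HFD against control (9) and 2 in HFD against control (8), and 17 in all, against 45. The cause was not tested. Counts of regions with a lower mean moved with the regions kept. Within 10000 bp of a start there were 8 of 13 in ELS against control, 5 of 14 in ELS-HFD against ELS, 9 of 17 in ELS-HFD against HFD and 4 of 8 in HFD against control. With at least 15 CpGs there were 4 in ELS against control, 1 in ELS-HFD against ELS, 1 in ELS-HFD against HFD, 2 of 18 in ELS-HFD against control and 1 in HFD against control. Regions without overlap in ELS-HFD against ELS numbered 2 within 10000 bp, against 5 in all. These alternatives keep fewer regions by construction.

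With 1 library left out, the count of lower regions ran from 13 to 14 in ELS against control, 14 to 15 in ELS-HFD against ELS, 17 to 18 in ELS-HFD against HFD, 16 to 18 in ELS-HFD against control and 7 to 8 in HFD against control. Regions passing limma ran from 0 to 2 in ELS against control and stayed at 0 in the other 4. Regions without overlap ran from 10 to 16, 5 to 9, 8 to 13, 12 to 16 and 8 to 10 in the same order, where fewer libraries make overlap rarer by construction. Counts at an unadjusted limma p under 0.05 ran from 5 to 11, 3 to 7, 4 to 11, 4 to 8 and 6 to 9. No paired analysis was possible because the labels give no litter or other link between libraries of different groups. Values in percent without depth limit the precision of the entries near 0, where single reads cannot be told apart.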
